A study of Caenorhabditis elegans with 3 samples.

Results

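Fatty acid desaturases are the membrane enzymes that place double bonds in fatty acids, and in Caenorhabditis elegans they are encoded by the 7 fat genes, fat-1 to fat-7. The genes were taken by symbol, and 5 of the 7 had a feature on the array: fat-2, fat-3, fat-4, fat-5 and fat-7, each with 1 feature and a value on every array. No annotated feature carried fat-1 or fat-6, which were therefore not analysed here. The 5 genes are among 15112 single genes with a value on all 3 arrays. The study hybridised 3 two-colour arrays, on each of which 1 RNA preparation of adult hermaphrodites with embryos, named TP10, shared the array with a wild-type ("wt") mixed reference. The labels give no genotype for the worms, no age or temperature, and do not say what TP10 stands for or what was mixed in the reference. The preparations, numbered 1 to 3, form a single group of replicates here. Whether they came from separate cultures is not stated, so p-values measure only the spread between them, which may be technical.

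Worms can make polyunsaturated fatty acids from saturated ones because they hold a complete series of desaturases. FAT-5, FAT-6 and FAT-7 place the first double bond, FAT-5 mainly in palmitic acid and the close paralogs FAT-6 and FAT-7 in stearic acid, which becomes oleic acid. FAT-2 then turns oleic acid into linoleic acid, a step that animals without such an enzyme must cover from the diet. FAT-1 makes omega-3 from omega-6 fatty acids, and FAT-3 and FAT-4 add the further double bonds that, with an elongation between them, lead to arachidonic and eicosapentaenoic acids. These fatty acids are built into membrane lipids and are carried to oocytes in yolk, and prostaglandin signals made from them guide sperm in the hermaphrodite.

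Values are log2 ratios of TP10 over the reference, centred so that the median gene or feature of each array is at 0. The sources used here name no dye, so the direction follows the order in the sample descriptions and is likely but not settled. If it were inverted, every "lower" would read "higher". A ratio compares a gene with the same gene in the reference and says nothing of its level against other genes. In whole worms, fewer cells of a type and less RNA per cell cannot be told apart. Without spot intensities, it is unknown whether a low ratio was measured above background. Precision is limited by having only 3 arrays.

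All 5 measured desaturase genes had a mean ratio below 0, and 4 of them were lower in TP10 at an adjusted p under 0.05 (limma). Of all 19300 genes and unnamed features tested, 43.9% passed that threshold in either direction, and 21.9% passed it as lower. The same 4 genes, fat-3, fat-2, fat-7 and fat-4, were lower by at least 2-fold, against 8.30% of all tested. The median of the 5 genes was -1.45 log2, beside 0.01 for all tested. The 5 genes spanned -4.31 to -0.21, and their order from lowest to highest was fat-3, fat-2, fat-7, fat-4 and fat-5 on each of the 3 arrays.

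**Figure D1:**
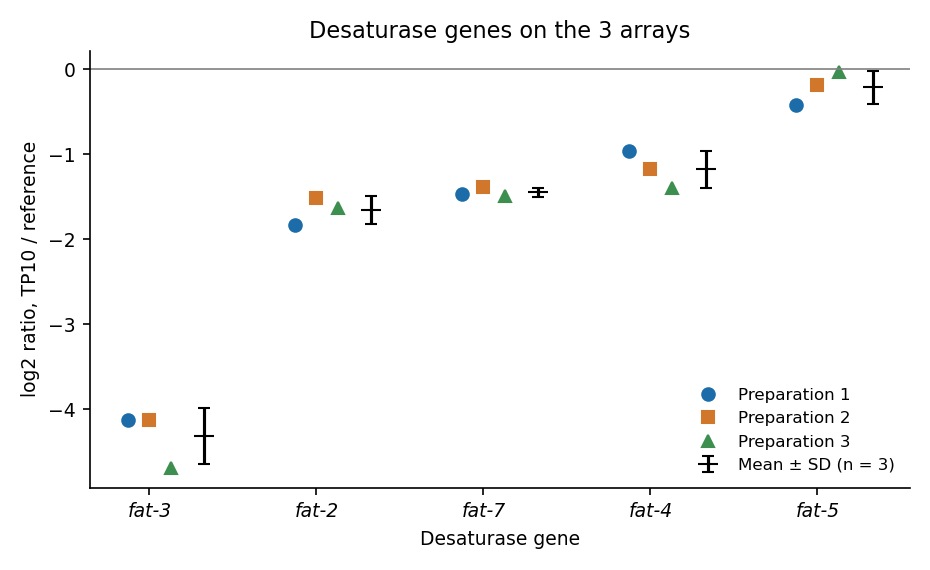
Log2 ratio of TP10 over the mixed reference (vertical axis) for the 5 measured desaturase genes (horizontal axis), with 1 symbol per preparation and the mean ± SD beside it (n = 3). fat-3 lies near -4.31 on average, fat-2, fat-7 and fat-4 lie between -1.84 and -0.96, and fat-5 lies between -0.42 and -0.03.

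Among the enzymes of the first double bond, fat-7 was lower and fat-5 did not pass the test. The ratio of fat-7 was -1.47, -1.39 and -1.49 log2 in preparations 1, 2 and 3. The 3 preparations lay within a narrow band, and only 4.09% of all genes and features tested had a smaller SD. The mean was -1.45 ± 0.06 (SD, n = 3), or 2.73-fold lower, with an adjusted p of 2.98e-05 (limma). fat-5 stood at -0.42, -0.19 and -0.03 in the same preparations. All 3 values were below 0, but the value in preparation 3 was close to the median gene. Its mean was -0.21 ± 0.20 (SD, n = 3), with an adjusted p of 0.274 (limma). The ratio of fat-5 exceeded that of fat-7 by 1.05, 1.19 and 1.46 log2 on the 3 arrays, a mean difference of 1.23 ± 0.21 (SD, n = 3). fat-6, the nearest paralog of fat-7, was not analysed here, and whether the fat-7 feature also bound fat-6 RNA was not tested. Nor was it tested for the other features, such as fat-1 RNA at the fat-2 feature or fat-3 and fat-4 RNA at each other's feature.

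fat-2, whose enzyme forms linoleic acid, was lower on every array. Its ratio was -1.84, -1.51 and -1.63 log2 in preparations 1, 2 and 3. The lowest value was that of preparation 1, and no value came near 0. The mean was -1.66 ± 0.17 (SD, n = 3), a 3.16-fold difference, with an adjusted p of 1.73e-05 (limma). Of all tested, 2.80% had a lower mean, compared with 3.99% for fat-7. The ratio of fat-7 exceeded that of fat-2 by 0.37, 0.12 and 0.14 on the 3 arrays, a mean of 0.21 ± 0.14 (SD, n = 3). The values of the 2 genes did not overlap, but they came close, with the highest fat-2 value at -1.51 and the lowest fat-7 value at -1.49.

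fat-3, which acts on linoleic and alpha-linolenic acids at the entry to the longer polyunsaturated fatty acids, had the lowest ratio of the 5. It stood at -4.12, -4.13 and -4.69 log2 in preparations 1, 2 and 3. Preparations 1 and 2 were nearly equal and preparation 3 was lower. The mean of -4.31 ± 0.33 (SD, n = 3) was a 19.9-fold difference, between 17.4-fold and 25.8-fold on single arrays, with an adjusted p of 3.51e-07 (limma). Before centring, the deposited values correspond to ratios of 0.057, 0.058 and 0.039. The table holds ratios in steps of 0.001, and at the smallest of these a step is 0.04 log2, below the SD between preparations. By mean ratio fat-3 was the 8th lowest of the 19300 genes and features tested. It ranked 11th on array 1, 14th on array 2 and 4th on array 3.

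fat-4 acts after fat-3, once the chain has been elongated, and was lower by a smaller factor. Its ratio was -0.96, -1.18 and -1.40 log2 in preparations 1, 2 and 3. Preparation 1 was the closest to the reference and preparation 3 the farthest from it. The mean was -1.18 ± 0.22 (SD, n = 3), or 2.27-fold lower, with an adjusted p of 0.000146 (limma). fat-3 and fat-4 lie next to each other on chromosome IV in the RefSeq annotation of WBcel235, with no protein-coding gene listed between them. The fat-3 ratio minus that of fat-4 was -3.16, -2.95 and -3.29 log2 on the 3 arrays, and the mean was -3.13 ± 0.17 (SD, n = 3), an 8.77-fold difference in ratio. The ratio of fat-2 exceeded that of fat-3 by 2.29, 2.61 and 3.06, a mean of 2.65 ± 0.39 (SD, n = 3).

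Each of the 4 pairs compared above (fat-5 with fat-7, fat-7 with fat-2, fat-2 with fat-3, and fat-3 with fat-4) differed the same way on 3 of 3 arrays. An exact two-sided sign-flip permutation test gave p = 0.25 for each (n = 3), 0.25 also after Benjamini-Hochberg adjustment over the 4, and that is the smallest value 3 arrays allow. Of neighbours in the order, fat-7 and fat-4 were the pair whose values overlapped. The mean of fat-7 minus fat-4 was -0.27 ± 0.21 (SD, n = 3), with -0.50, -0.21 and -0.09 on the 3 arrays. Between fat-4 and fat-5 the values did not overlap, and the mean of fat-4 minus fat-5 was -0.97 ± 0.41 (SD, n = 3).

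**Figure D2:**
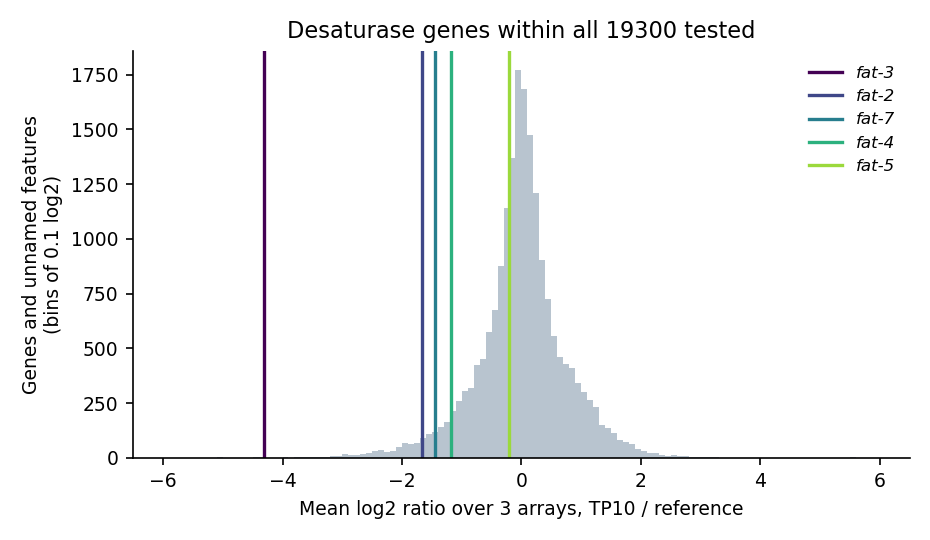
Histogram of the mean log2 ratio over 3 arrays (horizontal axis, bins of 0.1) for all 19300 genes and unnamed features tested (vertical axis, number per bin), with a vertical line at each measured desaturase gene. fat-3 lies in the far left tail at -4.31, fat-4, fat-7 and fat-2 on the left shoulder between -1.66 and -1.18, and fat-5 near the centre at -0.21.

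The arrays differed in how widely ratios were spread. The median absolute deviation was 0.729 log2 on array 1, 0.582 on array 2 and 0.443 on array 3. In units of that spread, fat-3 stood at -5.66, -7.09 and -10.6 on arrays 1, 2 and 3. On the same scale fat-2 stood at -2.52, -2.60 and -3.68. fat-7 stood at -2.01, -2.38 and -3.37, and fat-4 at -1.32, -2.03 and -3.16. These 4 genes were thus farthest from the median on array 3, whereas fat-5 was nearest to it there, at -0.58, -0.33 and -0.07. After the arrays were scaled to a single spread, the same 4 genes passed the test. The labels date each array differently, and effects of the day cannot be told apart from those of the preparation.

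**Figure D3:**
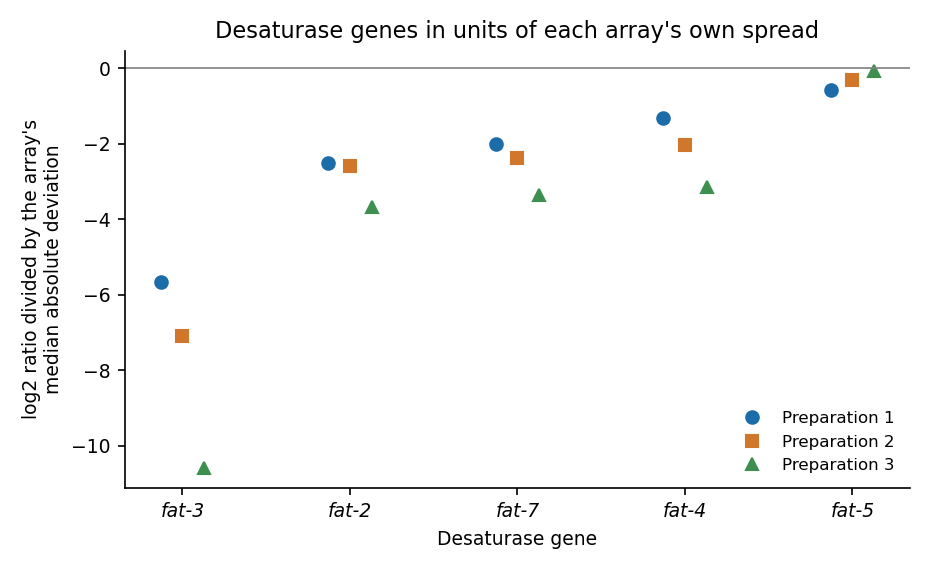
Log2 ratio divided by the median absolute deviation of its own array (vertical axis) for the 5 measured desaturase genes (horizontal axis), with 1 symbol per preparation. In preparation 3, fat-3 lies at -10.6 and fat-5 at -0.07.

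The genes whose ratios were most like those of each desaturase gene were found by the root mean square difference over the 3 arrays. Only genes with a symbol other than a bare sequence name were eligible, so an unnamed gene may lie nearer. Nearest to fat-3 were scl-2, at 0.19 log2 of difference, and the cuticle collagen gene col-2, at 0.38. Among all single genes, those with bare sequence names included, only 1 lay within 0.25 of fat-3, compared with 102 for fat-2, 155 for fat-7, 128 for fat-4 and 2570 for fat-5. Nearest to fat-2 were the neuropeptide gene flp-9 and mak-1, at 0.02 and 0.04. Nearest to fat-7 were gst-22 of the glutathione S-transferase family and the methylmalonyl-CoA epimerase gene mce-1, at 0.03 and 0.05. The histone gene his-71 and the hedgehog-related gene grd-9 were nearest to fat-4, at 0.05 and 0.06, and wht-9 and the RNA uptake gene sid-2 were nearest to fat-5, both at 0.02. With 3 arrays, likeness means little more than a similar mean ratio.

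Genes that act around the desaturases were counted in lists. In de novo synthesis, which supplies the saturated substrates, 3 of 5 measured genes passed, all of them higher. Of all 19300 tested, 4246 passed as higher and 43.9% passed in either direction. The list's median was 1.09 log2. The ATP citrate lyase genes acly-1 and acly-2 stood at 1.50 ± 0.19 and 1.41 ± 0.29 (SD, n = 3), and pod-2, the acetyl-CoA carboxylase gene, at 1.09 ± 0.54. Their adjusted p was 0.00128 or less (limma). The fatty acid synthase gene fasn-1 at 0.34 ± 0.18 and the malonyl-CoA decarboxylase gene mlcd-1 at 0.35 ± 0.07 did not pass (adjusted p = 0.0830 and 0.0653, limma). The 3 genes of this list that passed were higher. The 4 desaturase genes that passed were lower, beside the 21.9% of all tested that passed as lower. Since fasn-1, mlcd-1 and fat-5 did not pass, the signs of their means are not called.

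Elongation genes went both ways. The median of the 8 measured was -0.08 log2, and 3 of them were lower and 1 higher, beside the 43.9% of all tested that passed. The elongase family gene elo-4 stood at -2.83 ± 0.56 (SD, n = 3), hpo-8, which encodes a 3-hydroxyacyl-CoA dehydratase, at -0.73 ± 0.08, and elo-3 at 0.94 ± 0.61. The elongase ELO-1 lengthens the product of FAT-3 before FAT-4 acts on it, and for that place its gene is given although the naming rule does not select it. elo-1 stood at 0.28, 0.17 and 0.17 on the 3 arrays, with a mean of 0.21 ± 0.06 (SD, n = 3) and an adjusted p of 0.265 (limma). The genes on both sides of this step, fat-3 and fat-4, were lower on the same arrays.

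Desaturases take electrons from cytochrome b5, which its reductase recharges. Of the 4 electron donor genes measured, 1 passed, beside the 43.9% of all tested that passed in either direction. It was the cytochrome b5 gene cytb-5.2, which was lower, at -1.50, -1.25 and -1.69 log2 in preparations 1, 2 and 3. Its mean was -1.48 ± 0.22 (SD, n = 3), with an adjusted p of 3.94e-05 (limma), and it lay between the means of fat-2 and fat-7. The other three did not pass: cytb-5.1 at -0.19 ± 0.39, and the reductase genes hpo-19 at 0.29 ± 0.22 and T05H4.4 at -0.10 ± 0.08 (adjusted p between 0.143 and 0.616, limma).

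Of 16 measured genes that regulate desaturase genes or feed lipid signals to them, 5 were higher and 2 lower. The 7 that passed are about the share that passed among all tested (43.9%), and 4 passed when preparation 2 was left out. The median of the list was 0.16 log2. pmt-1, a phosphoethanolamine methyltransferase gene, stood at -2.26 ± 0.17 (SD, n = 3) and was lower. pmt-2, whose enzyme completes the same methylation series, was higher at 1.15 ± 0.31, as were the S-adenosylmethionine synthetase gene sams-1 at 0.78 ± 0.18 and, given outside the naming rule because its mean is all but equal to that of sams-1, the nuclear receptor gene nhr-66 at 0.78 ± 0.33. Of the regulators of the first-double-bond genes, 4 are given for their role, outside the naming rule. The nuclear receptor genes nhr-49 and nhr-80 stood at -0.04 ± 0.14 and 0.12 ± 0.42, sbp-1, the worm SREBP gene, at -0.30 ± 0.23, and the Mediator subunit gene mdt-15 at 0.41 ± 0.28. None of these 4 passed (adjusted p between 0.0544 and 0.870, limma), but mdt-15 lay close to the threshold and was past it after scaling to a single spread (adjusted p = 0.0420). The sign of nhr-80 turned without preparation 1, and that of nhr-49 without preparation 2. A further nuclear receptor gene of the list, nhr-13, stood at 0.19 ± 0.56 (SD, n = 3) and did not pass (adjusted p = 0.498, limma).

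**Figure D4:**
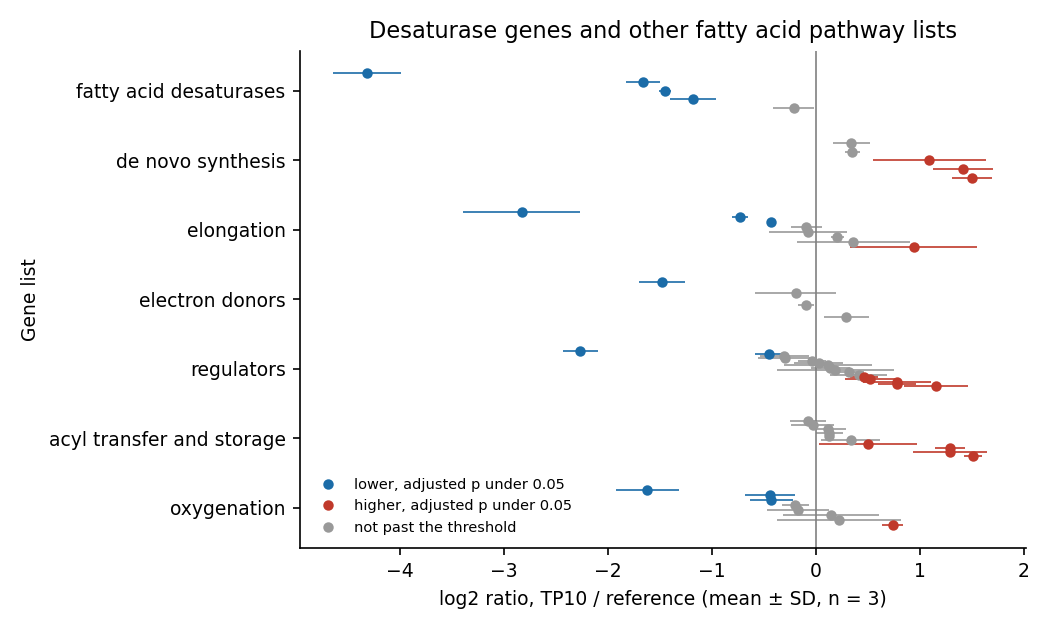
Mean log2 ratio ± SD over 3 arrays (horizontal axis) for each measured gene of the desaturases and of 6 lists of genes that act around them (vertical axis), coloured by direction and call at an adjusted p of 0.05. The desaturase row lies below 0, the de novo synthesis row above it, and the other rows on both sides. In those first 2 rows, fat-5, fasn-1 and mlcd-1 did not pass. The median of all tested is 0.01.

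Of 10 measured acyl transfer and storage genes 4 passed, a share close to the 43.9% of all tested that passed in either direction. Of all 19300 tested, 4246 passed as higher, and in this list all 4 did, with none lower. The fourth, the lipin gene lpin-1 (chosen after its value was seen), stood at 0.50 ± 0.47 (SD, n = 3) with an adjusted p of 0.0491 (limma), and lost its call without preparation 1 (adjusted p = 0.259) or 2 (adjusted p = 0.0881). The list had a median of 0.23 log2. sur-5 stood at 1.51 ± 0.08 (SD, n = 3), the acyl-CoA synthetase gene acs-1 at 1.29 ± 0.36 and the acyltransferase gene acl-8 at 1.29 ± 0.15. mboa-6 and mboa-7, members of the acyltransferase family that places polyunsaturated chains in phospholipids, are given for that role outside the naming rule and stood at 0.13 ± 0.03 and -0.03 ± 0.21. Neither passed. Of 8 genes that oxygenate polyunsaturated fatty acids or process the products, 3 were lower and 1 higher. That is close to the share of all tested that passed in either direction (43.9%). Their median was -0.18. The cytochrome P450 genes cyp-33E1 and cyp-29A2 stood at -1.62 ± 0.30 and 0.74 ± 0.10. The epoxide hydrolase gene ceeh-2 was lower at -0.44 ± 0.24, a call lost when preparation 2 was left out (adjusted p = 0.193) and when preparation 3 was (adjusted p = 0.187, limma).

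Markers checked the labelled stage. Their counts stand beside the 43.9% of all tested that passed in either direction and the 21.9% that passed as lower. As higher, 4246 of the 19300 tested passed. All 8 germ line and all 7 oocyte and eggshell markers were higher, with medians of 2.29 and 1.97 log2, and over the 3 arrays these medians ran from 1.92 to 2.63 and from 1.65 to 2.41. In the opposite reading of the ratio, these markers of egg production would all be lower in the embryo-bearing adults than in the reference. Of 6 sperm markers 4 were lower. Desaturase genes are known to be active in the intestine and the hypodermis. Of 12 intestine markers 6 were higher and 3 lower. The list ran from -0.96 to 1.00 around a median of 0.46. The array medians of that list were 0.52, 0.27 and 0.42. Of 7 hypodermis markers 2 were higher and 3 lower. Their median was -0.33, and they ranged from the collagen gene rol-6 at -3.75 to the nuclear receptor gene nhr-23 at 1.06. Of 6 neuron markers 2 were lower, and none of 5 body wall muscle markers passed. The part of tissue composition, of the worms or of the reference, in the desaturase ratios was not tested.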

How the data were processed

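The deposited values are log2 ratios of the 2 channels of each array, made by the authors. Their base was read from the table: turned back from log2, at least 99.98% of values on each array are whole thousandths (within 0.01 of a thousandth). The medians of the arrays (-0.0087, 0.017 and 0.010) show ratios already centred at deposit. Image analysis, background correction and normalization are not given in the sources used here. The platform annotation gives 1 gene for 15655 of the 20000 features and several for 198, and it leaves 4147 unlisted. Current symbols and chromosomes came from RefSeq (WBcel235) by gene identifier for 15569 of the 15655.

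A value on all 3 arrays was required (19748 features). Features of a gene were averaged, giving 19300 genes and unnamed features, and arrays were centred on their median. Array pairs correlated across genes with Pearson's r of 0.850 to 0.898, and genes are not independent replicates. An intercept-only limma model (version 3.58.1, R 4.3.3) tested each mean against 0 on both sides with moderated variances. P-values were adjusted by Benjamini-Hochberg over the 19300, and 0.05 was the threshold. The reference has no replicates of its own, and no array with exchanged dyes is named, so dye bias is not in the error. The limma step was run on simulated data with few changed genes and independent noise. Those settings differ from these data, so the run checks the code and not the calls. Members and lists were chosen with earlier results of these data known. The naming rule took every desaturase gene, the 3 largest passing changes of each pathway list (all genes in lists of up to 6 measured) and the 2 genes most like each desaturase gene. Genes with bare sequence names were not eligible for the last of these. Alternatives covered centring, scaling, filters, variance estimates and leaving out a preparation. No desaturase sequence is printed because no sequence table was used here.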

Additional observations from a re-analysis of the deposited data

How the results depend on the processing

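The 4 lower calls among desaturase genes, and their 2-fold size, held with the values as deposited, mean centring, quantile normalization, scaling to a single spread, features kept apart, values on at least 2 arrays, robust eBayes, array weights, and without each preparation in turn (4 to 4 calls). They also held on removal of the tenth of genes with the highest SD, but that filter acts on the same SD that limma pools. The adjusted p of fat-3 there was 5.11e-190 (limma), too extreme for 3 arrays. Calls in that setting, here and for mlcd-1, fasn-1 and mdt-15 below, are therefore no support. With preparation 2 left out, the adjusted p of fat-3 was 3.58e-13 (limma), smaller than the 3.51e-07 with all 3 arrays. With preparation 1 left out it was 8.98e-06. Calls without a preparation rest on the pooled variance as well. Without 1 preparation fat-3 ranged from -4.41 to -4.12 log2, fat-2 from -1.73 to -1.57, fat-7 from -1.48 to -1.43, fat-4 from -1.29 to -1.07 and fat-5 from -0.31 to -0.11, and fat-5 passed in none of the 13 settings. A one-sample test on each gene's own variance (2 degrees of freedom) called 0 desaturase genes, 0 at 2-fold, 0 pathway list genes and 1 of all tested, against 4, 4, 23 and 8476 with limma. In that test the adjusted p of fat-3, fat-2, fat-7 and fat-4 was 0.0865, 0.0865, 0.0854 and 0.0938, and 4 desaturase genes and 6829 of all tested had an unadjusted p under 0.05. The calls depend on the variance that limma pools over genes. Without 1 preparation, 16 to 20 pathway list genes and 6790 to 7811 of all tested passed. Without preparation 2, 4 regulator genes (7 with all arrays) and 2 oxygenation genes (4 with all arrays) passed. Without the genes of highest SD, 2 elongation genes passed (4 with all). mlcd-1 passed with quantile normalization, with scaling and without those genes, and fasn-1 without those genes. No desaturase gene and no gene past the threshold among those recomputed changed sign. Of genes not past it, nhr-80 ran from -0.122 to 0.277 without 1 preparation, nhr-49 from -0.109 to 0.027, mboa-7 from -0.146 to 0.044 and T13F2.2 from -0.057 to 0.138, so they have no settled sign. lpin-1 was not called after scaling, with features kept apart, with values on at least 2 arrays, with array weights (adjusted p = 0.0523, 0.0514, 0.0544 and 0.0689) or without preparation 1 or 2. mdt-15 was called with values as deposited, mean centring, quantile normalization, scaling and removal of the genes of highest SD (adjusted p = 0.0497, 0.0489, 0.0280, 0.0420 and 0.0102). No paired analysis was possible because all preparations belong to a single group.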

Other observations

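The genes that flank the desaturase genes on their chromosomes were looked up by position after the values were seen. Beyond fat-3 on the side away from fat-4, dct-15 stood at -0.83 ± 0.06 log2 (SD, n = 3, limma adjusted p = 0.000799) and the next gene, egl-20, which encodes a Wnt ligand, at -1.93 ± 0.44 (adjusted p = 2.55e-05). On the other side, T13F2.2, the gene next to fat-4, stood at 0.04 ± 0.20 (adjusted p = 0.850) and pis-1 beyond it at 1.26 ± 0.47 (adjusted p = 3.56e-04). fat-2 lies next to fat-1 in the annotation, with no protein-coding gene listed between them. Of the genes within 2 places of fat-2, fat-5 or fat-7 on either side, 9 had a value, and their means ran from -0.45 to 0.14 log2. Of these 9, 1 passed, beside the 43.9% of all tested that passed in either direction. The gene was pqn-74 near fat-2, at -0.45 ± 0.13 (SD, n = 3, limma adjusted p = 0.0258). Its call was lost without preparation 2 (adjusted p = 0.165) or 3 (adjusted p = 0.103). No explanation for these values was tested.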
